A study of Mus musculus with 8 samples.

Results

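The elastic fibre genes described here are elastin (Eln), the fibrillins Fbn1 and Fbn2, the fibulins Fbln1, Fbln2 and Fbln5, the lysyl oxidases Lox and Loxl1, the microfibril-associated gene Mfap5 and the latent TGF-beta binding gene Ltbp4. Members were all probesets annotated to exactly 1 of these 10 symbols, which gave 19 probesets of 9 genes, out of 34945 probesets and 18193 genes tested. Fbn1 was not analysed here. The values come from dorsal skin of wild-type mouse embryos at embryonic day 14.5 (E14.5, 2 arrays), E16.5 (3 arrays) and E18.5 (3 arrays), in a series that follows skin while the epidermis differentiates. All 8 samples are whole skin of the same genotype without any treatment named, hybridised to Affymetrix 3′ expression arrays. The strain is not stated in the labels, and nothing in the labels says whether they are different animals, so p-values measure only the spread between these samples.

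Elastic fibres give skin its recoil. They consist of a core of crosslinked elastin laid onto a scaffold of fibrillin microfibrils, and are built mostly before and shortly after birth by fibroblasts and smooth muscle cells. Fibulins and Ltbp4 bring soluble elastin to the scaffold, lysyl oxidases oxidise its lysines so that the chains crosslink, and microfibrils also hold TGF-beta family growth factors in store. In whole skin, a lower signal from fewer cells of a type and one from less RNA per cell cannot be told apart.

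The values are signal intensities on a linear scale, analysed as log2(signal + 16), and a change below is a log2 difference with its standard error (SE) and an adjusted p from limma over all 34945 probesets. A probeset was called at an adjusted p under 0.05. Per array, 21403 to 25766 probesets lay above a background set by 78 probesets of olfactory and vomeronasal receptor genes. The E14.5 arrays stood apart: the ratio of 3′ to 5′ control signal for actin was 6.50 and 6.91 on the E14.5 arrays, between 1.11 and 1.14 on those of E16.5 and between 1.35 and 1.37 on those of E18.5. Median signals were 60.8 and 63.4, then 120.1 to 128.9, then 137.5 to 152.6. In any comparison with E14.5, how the arrays were prepared and the stage cannot be told apart. The median change of all probesets was 0.38 at E16.5 against E14.5, but -0.57 after median centring and -0.03 after quantile normalization of the arrays. It was 0.12 as deposited at E18.5 against E16.5. Among calls, the share that rose was 58.6% as deposited, 38.5% after centring and 50.7% after quantile normalization at E18.5 against E16.5. For E16.5 against E14.5 these shares were 67.5%, 33.1% and 51.4%, and for E18.5 against E14.5 they were 71.7%, 32.9% and 51.4%.

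Most of the elastic fibre genes were brighter at E16.5 than at E14.5, and 4 of them were brighter again at E18.5. Read at the brightest probeset of each gene, 7 of the 9 genes (Eln, Fbln1, Fbln2, Fbln5, Loxl1, Mfap5 and Ltbp4) rose at E16.5 against E14.5 and 2 (Fbn2 and Lox) fell, with a median change of 2.44, where 57.9% of all genes were called, 37.1% up and 20.8% down, with a median of 0.29. After median centring 6 rose and 2 fell, and after quantile normalization 6 rose and 1 fell. Eln, Fbln2, Fbln5 and Loxl1 rose, 0 fell and 5 were not called at E18.5 against E16.5, with a median change of 0.63, against 11.9% called among all genes (6.69% up, 5.21% down) and a median of 0.12. Centring left 2 of these 4 rises and quantile normalization all 4. After centring Eln (0.66, adjusted p = 0.0747) and Fbln2 (0.51, adjusted p = 0.0875) were not called. At E18.5 against E14.5, 7 genes rose and 2 fell, with a median change of 2.67, where 61% of all genes were called, 41.6% up and 19.4% down.

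**Figure D1:**
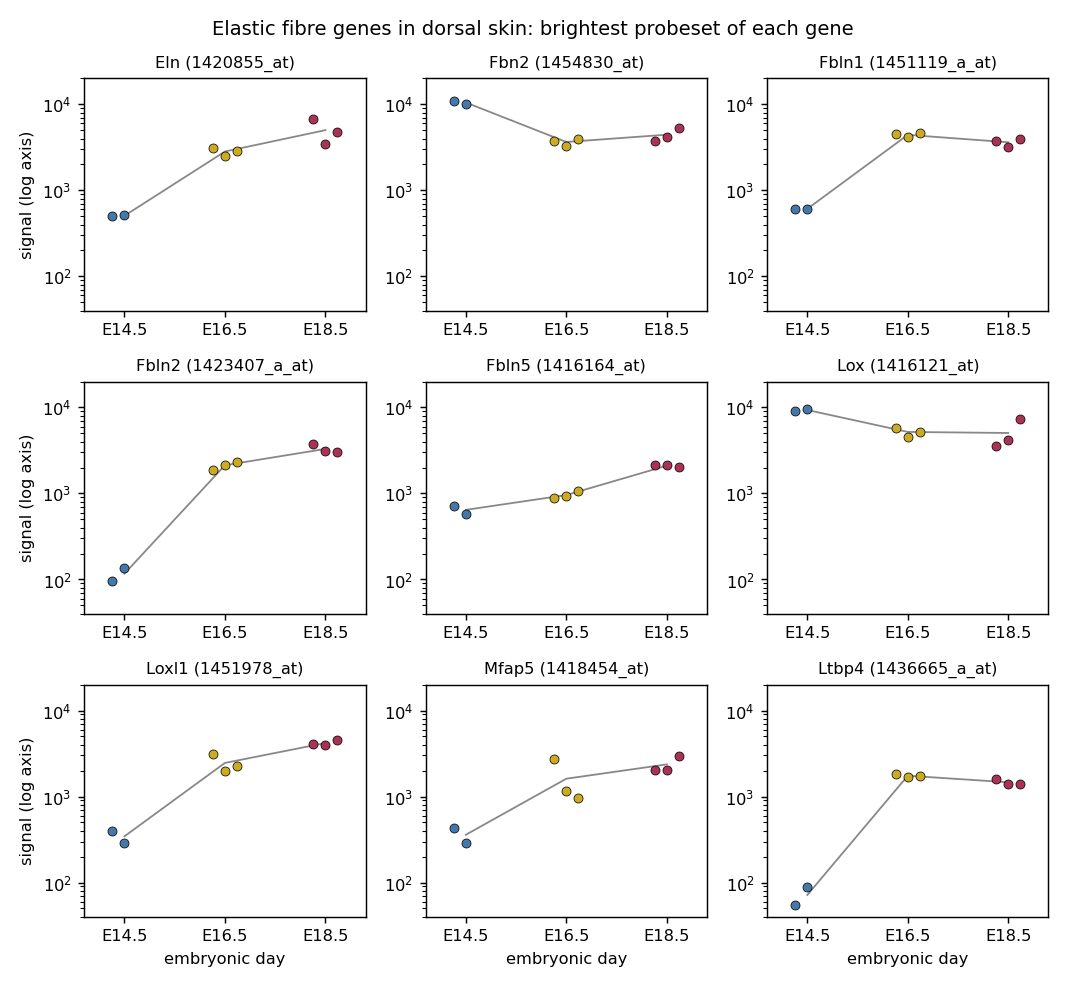
Signal (log axis) of the brightest probeset of each elastic fibre gene on each array of the 3 stages, with points for arrays and lines joining stage means. Ltbp4 lies between 55.5 and 87.9 at E14.5 and at 1390 or above on every later array, while Fbn2 and Lox are highest at E14.5.

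Over all 19 probesets, 6 rose, 0 fell and 13 were not called at E18.5 against E16.5, where 10.7% of all probesets were called, 6.27% up and 4.44% down. Those numbers were 9, 3 and 7 at E16.5 against E14.5, beside 57.6% called among all probesets (38.9% up, 18.7% down). At E18.5 against E14.5, 10 rose, 2 fell and 7 were not called, beside 59.8% (42.9% up, 16.9% down). After median centring, rises and falls among the 19 were 3 and 1 at E18.5 against E16.5, 7 and 6 at E16.5 against E14.5, and 8 and 7 at E18.5 against E14.5. Quantile normalization gave 4 and 0, 9 and 2, and 10 and 3 in the same order. Among all 34945 probesets, rises and falls in that order were 1442 and 2302, 7194 and 14535, and 6729 and 13740 after centring. After quantile normalization they were 1628 and 1580, 9669 and 9156, and 9518 and 8992. The arrays of E18.5 and E16.5 did not overlap for 7 probesets that were higher and 4 that were lower at E18.5, against a background of 36.8% of all probesets without overlap, 23.2% higher and 13.6% lower. For E16.5 against E14.5 they did not overlap for 12 higher and 4 lower probesets, against 73.7% of all probesets (47.9% and 25.8%), and for E18.5 against E14.5 for 12 higher and 3 lower, against 69.6% (49.6% and 20%). A total of 14 of the 19 probesets lay above background on all 8 arrays.

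**Figure D2:**
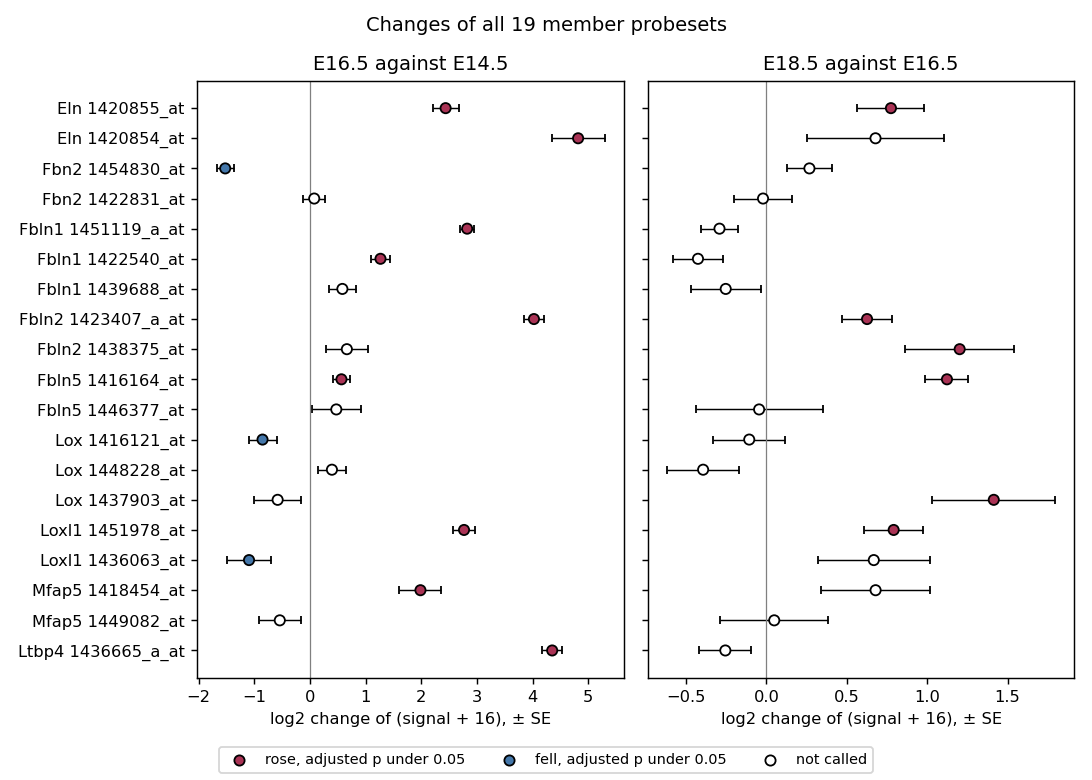
Log2 change of (signal + 16) with its SE for all 19 member probesets, at E16.5 against E14.5 (left) and E18.5 against E16.5 (right). Filled points passed the adjusted p threshold of 0.05. The horizontal scales differ: left changes run past 4, right changes stay under 1.5.

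Eln encodes tropoelastin, the soluble precursor of the elastic core. Its brightest probeset, 1420855_at, gave 501 and 511 at E14.5, 3146, 2495 and 2837 at E16.5, and 6764, 3441 and 4823 at E18.5. Every array of a later stage was above every array of an earlier one. Eln averaged 2826 ± 326 at E16.5 and 506 ± 6.76 at E14.5 (SD, n = 3 and 2), a 5.42-fold rise (log2 2.44 ± 0.23 SE, adjusted p = 5.68e-06). Over 20 alternative fits this log2 change ran from 1.49 to 3.63 and was called each time. At E18.5 Eln averaged 5010 ± 1670, against 2826 ± 326 at E16.5 (SD, n = 3 each), a 1.71-fold rise (0.77 ± 0.21 SE, adjusted p = 0.0404). That second call was close to the threshold: it held without E18.5 replicate 2 (adjusted p = 0.0104) and was lost when any other single array was left out, with adjusted p between 0.0578 and 0.142. It was also lost after median centring (adjusted p = 0.0747) and without the variance trend (0.1). A fit of only the arrays compared (0.057) and the mean of the gene's probesets (0.107) gave no call either. The other Eln probeset, 1420854_at, gave 69.0 and 2.97 at E14.5, where 1 of 2 arrays lay above background, then between 956 and 1309 at E16.5 and between 1595 and 2136 at E18.5. Its rise at E16.5 was at least 15.6-fold (adjusted p = 7.09e-06). Its 3 arrays at E18.5 were again all above those at E16.5, by 0.68 ± 0.42 SE, but the change was not called (adjusted p = 0.332); fitted without E14.5 replicate 1 or 2 it was (adjusted p = 0.0367 and 0.0341).

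Fbn2 encodes fibrillin-2, a fibrillin of microfibrils laid down during development, and its probesets differed as deposited. The brighter one, 1454830_at, gave 11000 and 9997 at E14.5, 3709, 3321 and 3920 at E16.5, and 3772, 4186 and 5349 at E18.5. Both E14.5 arrays were above all 6 later ones, and the probeset was 2.87-fold lower at E16.5 (-1.52 ± 0.15 SE, adjusted p = 8.82e-06). At E18.5 against E16.5 its arrays overlapped and the change of 0.27 ± 0.14 was not called (adjusted p = 0.238). The other probeset, 1422831_at, gave 3184 and 2949 at E14.5, between 2947 and 3524 at E16.5 and between 2317 and 3845 at E18.5, with overlapping arrays and no call in any comparison as deposited. Its change at E16.5 against E14.5 was 0.08 ± 0.20 SE (adjusted p = 0.769), but after median centring it was called lower, like the brighter probeset, at E16.5 against E14.5 (-0.87, adjusted p = 0.00219) and at E18.5 against E14.5 (-1.01, adjusted p = 0.000858).

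Mfap5 encodes a small glycoprotein (MAGP-2) that binds fibrillin microfibrils. Probeset 1418454_at gave 427 and 292 at E14.5, 2722, 1151 and 963 at E16.5, and 2054, 2049 and 2990 at E18.5. It rose 3.96-fold at E16.5 against E14.5 (1.99 ± 0.38 SE, adjusted p = 0.000929), which was 0.72 and not called with the mean of the gene's probesets (adjusted p = 0.143). E16.5 replicate 1 was high, at 2.58 times the mean of the other E16.5 arrays, and so the arrays of E18.5 and E16.5 overlapped and the change of 0.68 ± 0.34 was not called (adjusted p = 0.222). Without that array the change was 1.13 and was called (adjusted p = 0.0258). Probeset 1449082_at gave 1334 and 1273 at E14.5, 1786, 649 and 605 at E16.5, and 891, 813 and 1080 at E18.5, and was called in none of the comparisons as deposited. After median centring it was called lower at E16.5 against E14.5 (-1.49, adjusted p = 0.00409) and at E18.5 against E14.5 (-1.56, adjusted p = 0.00328). In this probeset E16.5 replicate 1 was 2.85 times the mean of the other E16.5 arrays, and without it the probeset was called lower at E16.5 against E14.5 (-1.04, adjusted p = 0.00104) and at E18.5 against E14.5 (-0.49, adjusted p = 0.0318). On the same array the summed signal of 7 smooth muscle and pericyte markers was 12060, against 8860 and 9759 on the other E16.5 arrays, and that of 5 adipocyte markers 9407, against 7291 and 7499. Both sums hide markers that went the other way: Myh11, Cnn1 and Cspg4 of the first and Retn of the second were lowest on that array. The sum of 9 dermal fibroblast markers was also lowest there, at 133900, against 140200 and 135300. Whether those cells bear on the Mfap5 value was not tested.

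The 3 fibulins took different courses. Fbln2, whose product binds both fibrillin and tropoelastin, gave 96.3 and 137.0 at E14.5, 1884, 2167 and 2329 at E16.5, and 3731, 3111 and 3036 at E18.5 in probeset 1423407_a_at. No array of one stage overlapped another stage, and Fbln2 rose 16.3-fold at E16.5 against E14.5 (4.03 ± 0.17 SE, adjusted p = 4.08e-08). It rose a further 1.54-fold at E18.5 against E16.5 (0.63 ± 0.16 SE, adjusted p = 0.0304). Leaving out any E16.5 array, or E18.5 replicate 1 or 2, ended that call, with adjusted p of 0.127, 0.0949 and 0.0769 without E16.5 replicates 1, 2 and 3 and of 0.0782 and 0.0524 without E18.5 replicates 1 and 2. Median centring (0.51, adjusted p = 0.0875) and a fit without the variance trend (adjusted p = 0.0843) also ended that call. A second Fbln2 probeset, 1438375_at, lay at background on all 8 arrays and gives no fold, although its difference of 1.20 at E18.5 against E16.5 passed the threshold (adjusted p = 0.049) and is among the 6 rises counted. Any fit without 1 array, other than E18.5 replicate 2, did not call it (adjusted p between 0.0513 and 0.195).

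Fbln5, a fibulin that ties elastin to cell-surface integrins, gave 719 and 570 at E14.5, 889, 929 and 1057 at E16.5, and 2146, 2156 and 2004 at E18.5 in probeset 1416164_at. Of the members' brightest probesets it had the largest change at E18.5 against E16.5 as deposited. It rose 2.18-fold at E18.5 against E16.5, averaging 2102 ± 85.0 at E18.5 and 958 ± 87.7 at E16.5 (SD, n = 3 each, 1.12 ± 0.13 SE, adjusted p = 0.00108). The call held whichever array was left out, with changes of 1.07 to 1.20, but not when the gene's probesets were averaged (0.54, adjusted p = 0.158), as the other one lay at background. At E16.5 against E14.5 Fbln5 rose 1.48-fold as deposited (0.57 ± 0.15 SE, adjusted p = 0.00735), but the change was -0.39 after median centring (adjusted p = 0.056), and the fit without E14.5 replicate 2 did not call it (0.40, adjusted p = 0.0714). That other Fbln5 probeset, 1446377_at, was at background on all 8 arrays.

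Fbln1, which is found within the elastin core and in basement membranes, had its highest values at E16.5. Probeset 1451119_a_at gave 606 and 613 at E14.5, 4493, 4140 and 4621 at E16.5, and 3710, 3159 and 3991 at E18.5. It rose 7.09-fold at E16.5 against E14.5 (2.83 ± 0.13 SE, adjusted p = 5.46e-08). At E18.5 all 3 arrays were below all 3 of E16.5, but the difference of -0.29 ± 0.12 was not called (adjusted p = 0.141). Probeset 1422540_at gave 891 and 666 at E14.5, between 1770 and 2024 at E16.5 and between 1176 and 1538 at E18.5, with a call at E16.5 against E14.5 (1.27 ± 0.17 SE, adjusted p = 8.03e-05) that was lost after median centring, and none at E18.5 against E16.5 (-0.43 ± 0.15, adjusted p = 0.105). Median centring gave that last difference a call (-0.54, adjusted p = 0.0482). The dimmer probeset 1439688_at gave 111 and 105 at E14.5, between 151 and 185 at E16.5 and between 125 and 150 at E18.5, and was called in none of the comparisons as deposited. Centring and quantile normalization called it lower at E18.5 against E14.5 (-0.74 and -0.76, adjusted p = 0.0292 and 0.0276). All 3 Fbln1 probesets were lower at E18.5 than at E16.5 without overlap, which 13.6% of all probesets also were.

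Ltbp4 encodes a latent TGF-beta binding protein that works with fibulin-5 in elastin assembly. Its only probeset, 1436665_a_at, gave 55.5 and 87.9 at E14.5, 1825, 1696 and 1719 at E16.5, and 1607, 1394 and 1390 at E18.5. The E14.5 arrays were far below all others, and Ltbp4 rose 20.4-fold at E16.5 (4.35 ± 0.18 SE, adjusted p = 3.45e-08), to an average of 1746 ± 69.1 at E16.5, against 71.7 ± 22.9 at E14.5 (SD, n = 3 and 2). Its E14.5 values lay near the background of those arrays, 44.2 and 46.0. Over 20 alternative fits the change ran from 3.40 to 4.62 and was called each time. At E18.5 the 3 arrays were all below those of E16.5, by -0.26 ± 0.16 SE, which was not called (adjusted p = 0.338).

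The start regions of the 3 fibulin genes and Ltbp4, the members with a window that could be used, are shown so that these partners in elastin assembly can be set side by side. Windows on a certain chromosome were left out. The genes shown all rose at their brightest probeset at E16.5 against E14.5, and Fbn2 and Lox, which fell, are not shown. Where the table holds several windows (2 for Fbln1, 2 for Fbln5 and 3 for Ltbp4), the one nearest the outer 5′ end of the gene was taken, and the counts below stand for that start site alone. Each RefSeq window (GRCm38.p6, 250 bases before to 50 after the start site, 5′ to 3′ on the gene's strand) has in capitals each match to the GC box GGGCGG on either strand. They are Fbln1 at chr15:85205699-85205998 (+), Fbln2 at chr6:91212514-91212813 (+), Fbln5 at chr12:101819070-101819369 (-) and Ltbp4 at chr7:27337563-27337862 (-).
Fbln1: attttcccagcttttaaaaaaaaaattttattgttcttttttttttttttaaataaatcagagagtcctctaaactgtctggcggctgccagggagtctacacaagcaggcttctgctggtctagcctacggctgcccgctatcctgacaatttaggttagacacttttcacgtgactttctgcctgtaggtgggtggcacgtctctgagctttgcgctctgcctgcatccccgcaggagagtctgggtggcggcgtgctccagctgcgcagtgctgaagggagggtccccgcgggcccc
Fbln2: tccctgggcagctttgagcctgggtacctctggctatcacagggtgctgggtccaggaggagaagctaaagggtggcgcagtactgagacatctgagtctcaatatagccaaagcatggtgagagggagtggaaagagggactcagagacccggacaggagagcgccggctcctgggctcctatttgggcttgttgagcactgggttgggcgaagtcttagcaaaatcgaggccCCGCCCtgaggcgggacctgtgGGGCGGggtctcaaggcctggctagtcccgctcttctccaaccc
Fbln5: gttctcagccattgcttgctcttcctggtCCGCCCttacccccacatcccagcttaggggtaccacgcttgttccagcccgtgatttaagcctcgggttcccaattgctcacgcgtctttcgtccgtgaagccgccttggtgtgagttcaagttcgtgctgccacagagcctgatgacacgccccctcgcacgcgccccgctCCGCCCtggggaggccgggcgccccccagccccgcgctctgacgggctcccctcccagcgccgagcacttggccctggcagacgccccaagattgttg
Ltbp4: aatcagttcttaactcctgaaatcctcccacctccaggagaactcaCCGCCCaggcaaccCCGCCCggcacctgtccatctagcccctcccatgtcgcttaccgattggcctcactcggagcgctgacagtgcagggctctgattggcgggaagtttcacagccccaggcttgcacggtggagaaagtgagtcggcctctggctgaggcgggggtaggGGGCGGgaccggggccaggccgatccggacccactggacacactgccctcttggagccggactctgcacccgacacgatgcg
Fbln2 and Fbln5 each hold 2 GC boxes, Ltbp4 holds 3 and Fbln1 holds 0, where 35.7% of 32851 windows of this length hold at least 1. The TATA box TATAAA (13.6% of windows) and the AP-1 site TGANTCA (7.81%), searched on both strands, have 0 matches in these 4 windows. GC content was 51.7% for Fbln1, 60.3% for Fbln2, 65.7% for Fbln5 and 64.3% for Ltbp4, against a median of 52.7% over all windows. No matches overlap one another, and they describe letters in a window, not binding.

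Both lysyl oxidases oxidise lysines of elastin and collagen, and their brightest probesets, as deposited, were called in opposite directions at E16.5 against E14.5, while other probesets of both genes differed from them. Loxl1, the oxidase that fibulin-5 tethers to elastic fibres, gave 403 and 286 at E14.5, 3158, 1982 and 2235 at E16.5, and 4046, 4003 and 4518 at E18.5 in probeset 1451978_at. Stages did not overlap, and it rose 6.82-fold at E16.5 against E14.5 (2.77 ± 0.21 SE, adjusted p = 9.03e-07). It rose 1.73-fold at E18.5 against E16.5 (0.79 ± 0.18 SE, adjusted p = 0.0229). Fits that left out the second or the third E16.5 array, or the third E18.5 array, gave adjusted p of 0.097, 0.104 and 0.053, and no call. The mean and the median over the gene's probesets (adjusted p = 0.0689 and 0.0696) and a fit without the variance trend (0.0716) did not call that rise either. The dim Loxl1 probeset 1436063_at went the other way at E16.5 against E14.5, with 65.3, 58.2 and 51.2 at E16.5 and 195 and 102 at E14.5 (-1.09 ± 0.39 SE, adjusted p = 0.0327). Fits without E14.5 replicate 1 (adjusted p = 0.247) or without E16.5 replicate 1, 2 or 3 (0.0562, 0.0713 and 0.087) did not call this fall. At E18.5 against E14.5 it was not called as deposited, and was called lower after centring (-1.49, adjusted p = 0.00516) and after quantile normalization (-1.47, adjusted p = 0.00593).

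Lox gave 9204 and 9460 at E14.5, 5814, 4569 and 5183 at E16.5, and 3538, 4227 and 7370 at E18.5 in its brightest probeset, 1416121_at. Both E14.5 arrays were above every later one, and Lox was 1.81-fold lower at E16.5 (-0.85 ± 0.25 SE, adjusted p = 0.0135), a call that fits without E14.5 replicate 1 or 2 did not make (adjusted p = 0.0623 and 0.0725), nor the one after quantile normalization. At E18.5 against E16.5 the arrays overlapped (-0.11 ± 0.23, adjusted p = 0.796), and E18.5 replicate 3 was 1.90 times the mean of the other E18.5 arrays. Probeset 1448228_at gave 2791 and 2674 at E14.5, between 3362 and 3951 at E16.5, and 1821, 2871 and 3916 at E18.5, and was not called in any comparison as deposited. Its 3 E16.5 arrays lay above both E14.5 arrays, and the change of 0.40 was called after quantile normalization (0.73, adjusted p = 0.0364) and in a fit of only these 5 arrays (adjusted p = 0.00888). After median centring it was -0.56, which was not called (adjusted p = 0.0585), and the change at E18.5 against E14.5 was called lower (-1.07, adjusted p = 0.00229). When E18.5 replicate 1 was left out, the change at E16.5 against E14.5 was called (0.40, adjusted p = 0.0394). Without E18.5 replicate 3 its change at E18.5 against E16.5 was -0.65, which passed the threshold (adjusted p = 0.0471). Probeset 1437903_at lay at background on all arrays except 1 at E18.5. It gives no fold, although its difference of 1.41 at E18.5 against E16.5 passed the threshold (adjusted p = 0.0407) and is among the 6 rises counted, but 9 of 16 alternatives did not call it, among them the fits without any single E16.5 array or E18.5 replicate 1 or 3 (adjusted p between 0.0737 and 0.17).

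Fbn2, Lox, Loxl1 and Mfap5 thus each had probesets above background on all arrays of E16.5 and E14.5 whose changes between these stages had opposite signs as deposited. Those of Fbln1 shared a sign but not a call. After median centring the signs of Loxl1 and Mfap5 still differed, while both Fbn2 probesets and both brighter Lox probesets were lower at E16.5. The 3′ to 5′ control ratios differed between the same stages: for actin they were 1.11 to 1.14 at E16.5 and 6.50 and 6.91 at E14.5, and for Gapdh 0.840 to 0.869 at E16.5 and 2.96 and 3.03 at E14.5. The part of this difference in the disagreement of probesets was not tested.

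**Figure D3:**
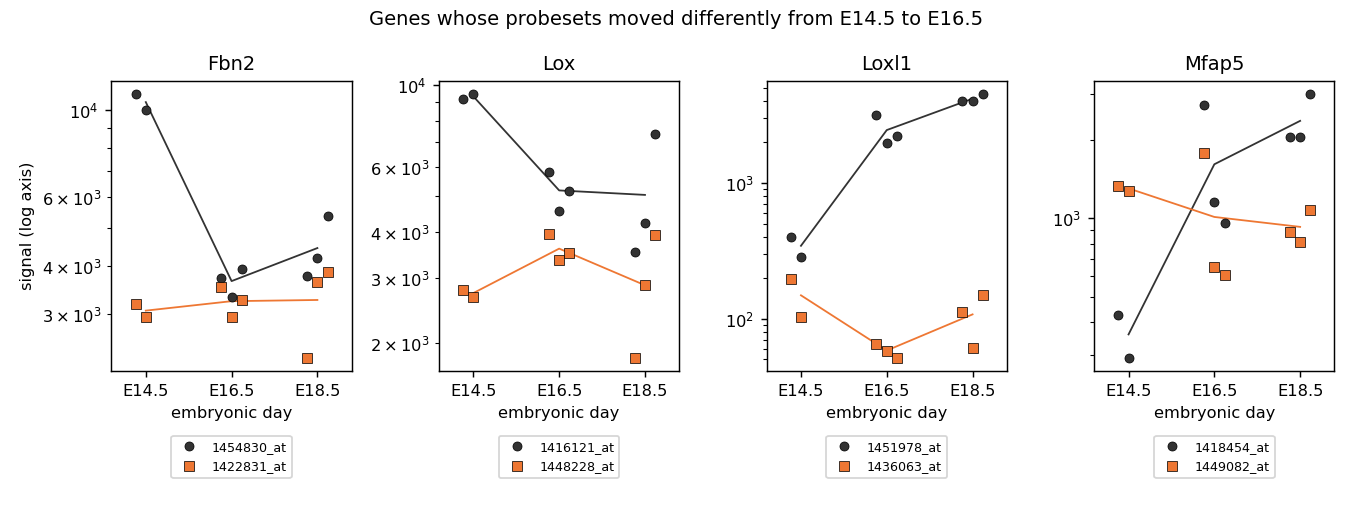
Signal (log axis) of the 2 brighter probesets of Fbn2, Lox, Loxl1 and Mfap5 on each array of the 3 stages, with lines joining stage means. The probesets of a gene diverge mainly from E14.5 to E16.5, as for Loxl1, where 1451978_at is higher and 1436063_at lower at E16.5.

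Within a stage the genes did not share 1 high array. At E16.5, replicate 1 was highest for 5 of the 9 genes, replicate 3 for 4 and replicate 2 for 0, where replicates 1, 2 and 3 were highest for 34.5%, 32.8% and 32.7% of all genes. At E18.5, replicate 1 was highest for 3, replicate 2 for 1 and replicate 3 for 5, against 43%, 24% and 33% of all genes. Eln, at 1.64 times the mean of the other E18.5 arrays, and Fbln2, at 1.21 times, peaked in E18.5 replicate 1, while Lox and Fbn2 were lowest there, at 0.61 and 0.791 times.

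Across all 8 arrays, the log2 values of Loxl1 (Pearson r = 0.976) and Fbln2 (0.974) were the most like those of Eln among the members, followed by Ltbp4 (0.931), Fbln1 (0.92), Mfap5 (0.918) and Fbln5 (0.84), while Fbn2 (-0.862) and Lox (-0.795) ran against them. These correlations describe arrays that fall into separate stages. Among 7114 genes above background in every stage and with stage means at least 1 apart, those most like Eln were Slc39a14, Ppp5c and Slc4a11 (r = 0.996 each), Rita1 (0.995) and Ccdc3 (0.994). Over the 6 later arrays alone their r with Eln was 0.983, 0.966, 0.971, 0.962 and 0.962 in that order. These arrays also served to choose the genes, so the values are no separate check of the likeness. Loxl1 ranked 185th and Fbln2 221st in likeness.

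Other genes of elastic fibre biology were read from 4 lists, with 71 of 79 genes measured. Of these, 11 rose, 2 fell and 58 were not called at E18.5 against E16.5, with a median change of 0.23, where 11.9% of all genes were called. For E16.5 against E14.5, 38 rose, 12 fell and 21 were not called, with a median of 0.76, where 57.9% of all genes were called. At E18.5 against E14.5, 45 rose, 10 fell and 16 were not called, with a median of 1.13, where 61% of all genes were called. The E16.5 arrays enter both the change at E18.5 and the change at E16.5 against E14.5, so their values are given side by side only.

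Of 15 microfibril and elastin-binding genes, 4 rose, 1 fell and 10 were not called at E18.5 against E16.5, where 11.9% of all genes were called. Mfap4, a microfibril-bound protein that promotes elastic fibre assembly, gave 5406, 4411 and 4866 at E18.5 and 3092, 2650 and 2794 at E16.5 (0.78 ± 0.16 SE, adjusted p = 0.0129). Efemp1 (fibulin-3) gave 2296, 2227 and 3305 at E18.5 and 1833, 1114 and 1003 at E16.5 (1.01 ± 0.24 SE, adjusted p = 0.0238), again with E16.5 replicate 1 the highest of its stage, as for Mfap5. Mmrn2, an endothelial relative of the emilins, rose by 1.03 ± 0.18 SE (adjusted p = 0.00757), and Emilin3 was lower, at 581, 432 and 549 at E18.5, against 857, 915 and 899 at E16.5 (-0.77 ± 0.15 SE, adjusted p = 0.00977). Fits without E16.5 replicate 2 or 3 did not call Mfap4 (adjusted p = 0.0609 and 0.0604), Efemp1 (0.0932 and 0.108) or Emilin3 (0.0524 and 0.0553), and that without E18.5 replicate 3 did not call Efemp1 (0.0589). Mmrn2 was not called with the mean (0.40, adjusted p = 0.176) or the median (0.18, adjusted p = 0.511) over its probesets. At E16.5 against E14.5, 7 rose, 3 fell and 5 were not called, where 57.9% of all genes were called, 37.1% up and 20.8% down. Mfap2, the MAGP-1 partner of Mfap5 on microfibrils, gave 6878, 6805 and 7148 at E16.5 and 619 and 725 at E14.5 (3.34 ± 0.12 SE, adjusted p = 2.07e-08). Emilin1, which sits where elastin meets microfibrils, rose by 2.66 ± 0.23 SE (adjusted p = 2.9e-06). Mmrn2 (-2.56 ± 0.21 SE, adjusted p = 1.62e-06), Efemp1 (-1.11 ± 0.26 SE, adjusted p = 0.00399) and Vcan (-0.61 ± 0.24 SE, adjusted p = 0.0492) fell. Mmrn2 was not called with the mean over its probesets (-0.41, adjusted p = 0.105), nor Vcan after quantile normalization (-0.19, adjusted p = 0.56). Stage means from E14.5 to E18.5 were 2788, 1317 and 2609 for Efemp1 and 1740, 282 and 597 for Mmrn2.

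Of 16 genes of crosslinking and assembly, 0 rose and 1 fell at E18.5 against E16.5, with a median change of 0.0046, where 11.9% of all genes were called. The one called was Atp6v0a2, a proton pump subunit whose loss causes cutis laxa in humans (-0.62 ± 0.16 SE, adjusted p = 0.0305), which the fits without any single E16.5 array or E18.5 replicate 2 or 3 did not call (adjusted p between 0.0503 and 0.14). At E16.5 against E14.5, 12 rose, 2 fell and 2 were not called, with a median of 1.13. Of all genes, 57.9% were called there, 37.1% up and 20.8% down. Bmp1, the protease that activates lysyl oxidase, rose by 2.80 ± 0.21 SE (adjusted p = 8.46e-07), and Adamtsl4, which binds microfibrils, at least 6.86-fold (adjusted p = 7.55e-06). Atp7a, the copper transporter that supplies lysyl oxidases, was lower by -1.28 ± 0.20 SE (adjusted p = 0.000258), and Furin, which processes profibrillin, by -2.18 ± 0.16 SE (adjusted p = 9.78e-07).

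Of 22 genes of TGF-beta and its latent binding proteins, 4 rose and 0 fell at E18.5 against E16.5, where 11.9% of all genes were called. Ltbp3, a relative of Ltbp4, gave 3141, 2410 and 2677 at E18.5 and 1091, 1083 and 1019 at E16.5 (1.35 ± 0.13 SE, adjusted p = 0.00038). Ltbp1 gave 1085, 996 and 783 at E18.5 and 523, 476 and 414 at E16.5 (0.99 ± 0.15 SE, adjusted p = 0.00377), and Bmp4 rose by 1.13 ± 0.14 SE (adjusted p = 0.00142). When all probesets of a gene were averaged or their median taken, Ltbp3 and Ltbp1 were not called (adjusted p up to 0.36 and 0.125). Between E14.5 and E16.5, 11 rose and 6 fell, where 57.9% of all genes were called, 37.1% up and 20.8% down. Ltbp1 and Ltbp3 were then among the falls, by -3.95 ± 0.17 SE (adjusted p = 4e-08) and -1.82 ± 0.14 SE (adjusted p = 1.17e-06), while Ltbp4 rose. Tgfb1, the growth factor held by latent binding proteins, gave 1381, 1506 and 1521 at E16.5 and 52.3 and 49.9 at E14.5 (4.47 ± 0.15 SE, adjusted p = 1.67e-08). Tgfb2 fell by 2.30 on the log2 scale at its brightest probeset (adjusted p = 1.21e-06), and Itgav was lower by -2.65 ± 0.13 SE (adjusted p = 6.63e-08). Itgb1 (2.87 ± 0.14 SE, adjusted p = 6.1e-08) and Smad2 (2.13 ± 0.20 SE, adjusted p = 4.51e-06) rose. With the median over probesets, neither the fall of Tgfb2 (-0.032, adjusted p = 0.914) nor that of Ltbp1 (-0.21, adjusted p = 0.618) was called. Itgb1 (-0.064, adjusted p = 0.866) and Itgav (0.32, adjusted p = 0.353) were not called with that median either.

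Of 18 genes of elastic fibre breakdown and its inhibitors, 3 rose and 0 fell at E18.5 against E16.5, where 11.9% of all genes were called. Mmp14, a membrane-bound matrix metalloproteinase, gave 6087, 4623 and 5572 at E18.5 and 3441, 3234 and 2998 at E16.5 (0.74 ± 0.14 SE, adjusted p = 0.00845). Its inhibitor Timp2 rose by 0.42 ± 0.10 SE (adjusted p = 0.0288), and Timp4 at least 2.18-fold (adjusted p = 0.0238). Without E16.5 replicate 3, Mmp14 (adjusted p = 0.0526), Timp2 (0.126) and Timp4 (0.105) were not called, nor Timp2 without E16.5 replicate 1 or 2 (0.118 and 0.0819), nor Timp4 without E16.5 replicate 2 or E18.5 replicate 1 (0.0997 and 0.0662). Timp2 was also not called after median centring (0.31, adjusted p = 0.108), nor with the mean (0.14, adjusted p = 0.505) or median (0.12, adjusted p = 0.521) over its probesets, nor Timp4 after quantile normalization (1.07, adjusted p = 0.0908). A total of 8 rose, 1 fell and 9 were not called at E16.5 against E14.5, where 57.9% of all genes were called. Mmp14 rose by 3.40 ± 0.15 SE (adjusted p = 4.67e-08) and the elastin-degrading cathepsin Ctsk by 2.21 ± 0.15 SE (adjusted p = 4.35e-07), while cathepsin Ctss was lower by -1.06 ± 0.25 SE (adjusted p = 0.00358). Mmp12 (macrophage elastase) and Elane (neutrophil elastase) lay at background on all 8 arrays.

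**Figure D4:**
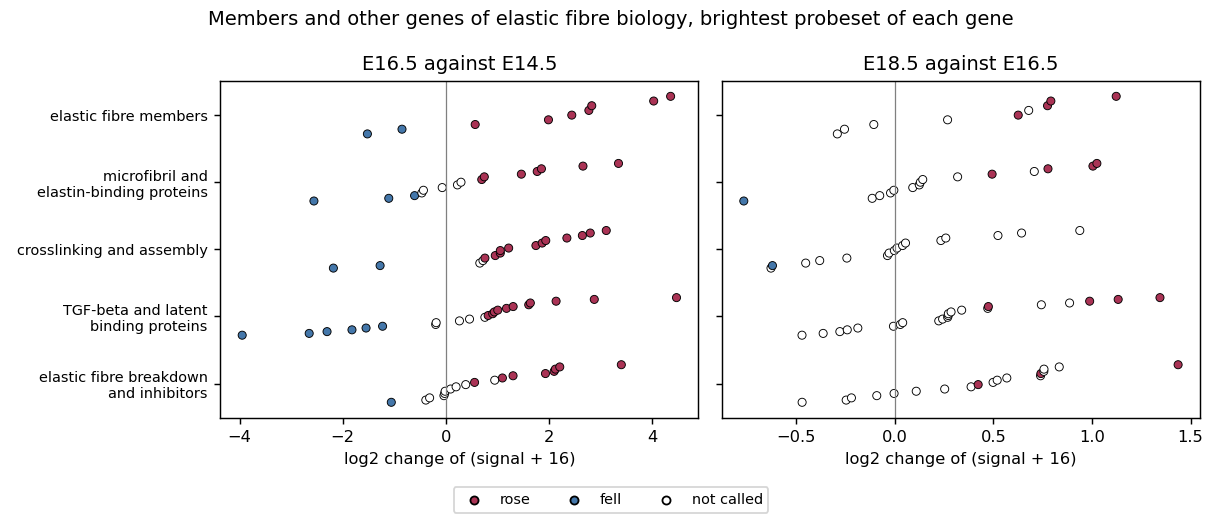
Log2 change of (signal + 16) at the brightest probeset of each elastic fibre member and of each measured gene in 4 lists, at E16.5 against E14.5 (left) and E18.5 against E16.5 (right). Filled points passed the adjusted p threshold. Most points on the right are open, with 4 of 9 members and 13 of 71 list genes called.

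Markers of the cell types that skin holds also moved between stages. The summed signal of 9 dermal fibroblast markers was 81360 and 83310 at E14.5, between 133900 and 140200 at E16.5 and between 144500 and 183000 at E18.5, so the fibroblast sums at E18.5 lay above those at E16.5 on every array. Of these markers, 2 of 9 rose at E18.5 against E16.5, where 11.9% of all genes were called, 6.69% up and 5.21% down. They were Col3a1 (0.57 ± 0.09 SE, adjusted p = 0.00373, not called after quantile normalization) and Col1a2 (0.34 ± 0.10 SE, adjusted p = 0.0468, and -0.11 after quantile normalization). Only the fit without E18.5 replicate 1, of those with 1 array left out, still called Col1a2, and the others gave adjusted p between 0.0687 and 0.183. For 7 smooth muscle and pericyte markers the sums were 4748 and 6325, 8860 to 12060, and 9694 to 13680, with 0 of 7 called at E18.5 against E16.5 by limma. Sums of 6 keratinocyte markers were 45610 and 64720, 104800 to 115700, and 142600 to 144500, and 5 adipocyte markers, all of which rose at E18.5, summed to 2838 and 3384, 7291 to 9407, and 28620 to 36120. Skeletal muscle markers summed to 6241 and 11960, 56300 to 62630, and 68100 to 107300, endothelial markers to 2025 and 2056, 5262 to 6105, and 4037 to 4503, and macrophage markers to 13610 and 16670, 6695 to 7551, and 8031 to 11100. The sums hide markers that went the other way. Macrophage C1qb averaged 6864 at E14.5 and 288 at E16.5, a called fall, while 2 of 6 macrophage markers rose. In the same comparison Trp63 (keratinocyte), Tek (endothelial), and Pdgfra and Dpt (fibroblast) fell at their brightest probesets, while 5, 5 and 6 markers of these lists rose. Of all genes 57.9% were called there. With the mean or the median over its probesets, Pdgfra was instead called higher there (1.15 and 1.81, adjusted p = 0.000324 and 8.57e-06). After quantile normalization neither Pdgfra nor Dpt was called (adjusted p = 0.186 and 0.34). Cartilage markers stayed between 454 and 804 on all arrays, with Matn1 at background throughout. The part of these cell types in the changes of the elastic fibre genes was not tested.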

How the data were processed

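The deposited values are signal intensities on a linear scale for 45101 probesets, made by the authors from 8 arrays. The submitters' processing notes name Affymetrix Expression Console 1.1 and PLIER 2.0, without their roles. How background was corrected and arrays were normalized is not stated there. Per the labels' protocols, total RNA was amplified from random hexamers and labelled by a method for whole-transcript arrays, which leaves uncertain how targets for a 3′ array were made.

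Control probesets and those with several (932) or no symbols (9211, controls included) were left out, leaving 34945. limma 3.58.1 (R 4.3.3) estimated a mean for each stage from log2(signal + 16) of all 8 arrays (lmFit, eBayes with a variance trend), with Benjamini-Hochberg adjustment over all probesets. Background was the 95th percentile of 78 receptor probesets per array. A fold against a stage with an array at background is given as a lower bound. The number of arrays limits the precision. In simulated data for E18.5 against E16.5 over 34945 probesets, 200 were changed, 100 by a log2 of 1 and 100 by 2. Of these, 30% and 94% were recovered, with 13 false calls. The data had 3742 calls, so the adjustment was not alike. These shares do not give the recovery in the data.

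Named were all members, up to 3 rises and 3 falls per list and comparison and the 5 genes most like Eln. The members and lists were chosen with earlier results of these data known. Mmp12, Elane, Matn1, C1qb, Trp63, Tek, Myh11, Cnn1, Cspg4 and Retn fall outside that rule and were named after their values were seen. Promoter windows came from RefSeq, without those of a certain chromosome, and 4 members had one that could be used. The planned comparison of Fbn1 with Fbn2 was not made.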

Additional observations from a re-analysis of the deposited data

How the results depend on the processing

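The settings tried were median centring, quantile normalization, pseudocounts of 1 and 64, a filter on dim probesets, no variance trend, robust eBayes, array weights, only the arrays of the stages compared, gene-level rows (which give no count of probesets) and each array left out in turn. The replicate numbers used here follow the order of the samples in the series and do not link arrays of different stages, so no paired analysis was possible. Whether replicates share a litter is not known. For both comparisons with E14.5, the counts of called members, rises and falls together, stayed within 1.5 times under every alternative run, but their directions did not: median centring took the member probesets that fell to 6, against 3 as deposited, at E16.5 against E14.5, and to 7, against 2, at E18.5 against E14.5. At E18.5 against E16.5 the counts moved. The 6 member probesets became 1 without the variance trend and 1 to 5 with an array left out, and the 3742 calls among all probesets became 2435 and 1208 to 4120 (1662, 1563 and 1208 without E16.5 replicates 1, 2 and 3). The 4 member genes became 2 after median centring, 1 without the trend, 1 with the mean or the median of a gene's probesets, and 1 to 3 with an array left out. The 13 other list genes became 8 without the trend and 5 to 14 with an array left out. The cause was not tested.

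Some directions turned. After quantile normalization the log2 change was 0.0077 for Fbn2 1422831_at and -0.11 for Col1a2 (E18.5 against E16.5), -0.36 for Fbln1 1439688_at and 0.15 for Dpt (E16.5 against E14.5), and -0.018 for Lox 1437903_at, -0.76 for Fbln1 1439688_at and -0.13 for Fbln5 1446377_at (E18.5 against E14.5). After median centring it was -0.067 for Mfap5 1449082_at at E18.5 against E16.5. At E16.5 against E14.5 centring gave -0.39 for Fbln5 1416164_at, -0.87 for Fbn2 1422831_at, -0.29 for Fbln2 1438375_at, -0.37 for Fbln1 1439688_at, -0.48 for Fbln5 1446377_at and -0.56 for Lox 1448228_at. At E18.5 against E14.5 it gave -0.22 for Fbln1 1422540_at, -1.01 for Fbn2 1422831_at, -0.23 for Lox 1437903_at, -0.74 for Fbln1 1439688_at, -0.64 for Fbln5 1446377_at and -1.07 for Lox 1448228_at. Array weights gave 0.038 for Fbn2 1422831_at and 0.075 for Fbln5 1446377_at (E18.5 against E16.5). With the mean of a gene's probesets, Lox was 0.30 at E18.5 against E16.5, Dcn -0.94, Vcan 0.31 and Pdgfra 1.15 at E16.5 against E14.5, and Dcn -0.83, Itgav 0.29 and Pdgfra 1.51 at E18.5 against E14.5. With the median, Lox was 0.40, Dcn -0.94, Vcan 0.11, Itgb1 -0.064, Itgav 0.32 and Pdgfra 1.81 at E16.5 against E14.5, and Lox 0.0025, Dcn -0.83, Ltbp1 0.72, Itgav 0.73 and Pdgfra 2.00 at E18.5 against E14.5. At the brightest probeset the changes at E16.5 against E14.5 were -0.85 for Lox, 1.85 for Dcn, -0.61 for Vcan, 2.87 for Itgb1, -2.65 for Itgav and -0.74 for Pdgfra. Leaving out an array gave -0.42 to 0.11 for Lox 1416121_at, -0.16 to 0.21 for Fbn2 1422831_at, -0.37 to 0.27 for Fbln5 1446377_at and -0.22 to 0.54 for Mfap5 1449082_at at E18.5 against E16.5, and -0.078 to 0.29 for Fbn2 1422831_at and -0.25 to 0.29 for Lox 1448228_at at E18.5 against E14.5.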
